A study of Mus musculus with 6 samples.

Results

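The genes of glucose uptake, glycolysis and the hypoxia response were followed in macrophages with and without Xbp1. The members were chosen by name, as the rows of the authors' table whose symbol is 1 of 32 listed genes. The rule found 33 rows of the 54532 in the table, because Aldoa is listed under 2 gene identifiers. Of the 32 genes, 22 act in glucose uptake, glycolysis and the handling of pyruvate and lactate, and 10 belong to the oxygen-sensing system or to its known targets. RNA was sequenced from bone marrow-derived macrophages (BMDMs), cells grown in culture from marrow precursors, of C57BL/6 mice aged 32 to 34 weeks. The XWT group (3 libraries) had the genotype Xbp1FL/FL, in which both Xbp1 alleles can be removed by a recombinase, and the XKO group (3 libraries) had the genotype Xbp1ΔMf, a deletion in macrophages. Cells of both groups were primed with lipopolysaccharide (LPS) and then were kept for 48 h in culture medium that WT primary hepatocytes had conditioned, so both groups were primed and exposed. The sources used here do not name the recombinase behind the deletion, and they do not say whether each library had its own animal or culture. The p-values therefore reflect spread among these 6 libraries only, and that spread may be technical.

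The libraries held 28354866 to 30891729 counts each. Xbp1 itself stood at 132 to 159 CPM (counts relative to the TMM-scaled total of the library) in XWT and at 76.5 to 79.4 CPM in XKO (log2 fold change -0.94, edgeR adjusted p = 1.93e-06), a count over the whole gene that includes any part outside the deletion. On the first principal component XWT 3 stood apart from the other XWT libraries, at -18.21 against -36.89 and -38.6, with the XKO libraries between 29.15 and 33.78. All 8 macrophage markers examined were tested and 7 were not called (12.5% called, against 14.0% of all tested genes). The exception was the lysozyme gene Lyz2 (log2 fold change -1.13). Of the 8 log2 fold changes 7 were negative and 1 was positive. Adgre1 (-0.20, edgeR adjusted p = 0.0677) has an adjusted p of 0.0197 in the authors' deposited table. The summed level of the 8 markers was 39551 to 47892 CPM in XWT and 25278 to 26948 CPM in XKO. Lyz2 alone was at 27319 to 34344 CPM in XWT and 13774 to 14915 CPM in XKO, and the other 7 markers together at 12232 to 13548 and 11478 to 12033 CPM. All 8 hepatocyte markers had 0 counts in every library, and 6 lymphocyte markers together stood at 0.0742 to 0.419 CPM, with Cd3e and Cd3d at 0 counts. The summed level of 14 fibroblast and stroma markers was 791 to 893 CPM in XWT and 74.2 to 91.7 CPM in XKO, and that of 12 neutrophil markers was 69.4 to 82.4 and 98.6 to 106 CPM, with the defining neutrophil marker Ly6g at 0 counts. The part of these other cell types in the results below was not tested, and in bulk RNA fewer cells of a type cannot be told apart from less RNA per cell.

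Glycolysis splits glucose into pyruvate in the cytosol and is the route that LPS-stimulated macrophages use more of. Glucose enters through the transporter encoded by Slc2a1, is trapped by hexokinase, passes the committed step at phosphofructokinase and leaves as pyruvate, which lactate dehydrogenase turns into lactate for export. Hypoxia-inducible factor (HIF) is a transcription factor whose alpha subunit, encoded by Hif1a, is marked for breakdown by the prolyl hydroxylases Egln1, Egln2 and Egln3 when oxygen is present. In inflamed macrophages HIF can also act with oxygen present, and many glycolysis genes are among its targets.

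HIF binds a short core, ACGTG or GCGTG, and the promoters of the members were searched for these letters on both strands. The windows were the 250 bases before each annotated start in RefSeq (GRCm38.p6), and 31 of the 32 genes matched an entry (Ndrg1 did not). Either core was in at least 1 window of 29 of these 31 genes. Among all 32851 windows of this length 38.6% held either core, 16.6% held ACGTG and 28.2% held GCGTG. Genes with several starts had several windows, so the count per gene cannot be set directly against these shares per window. The longer word TGACGTG, which contains ACGTG and is the core of the element that XBP1 binds in unfolded-protein-response promoters, was in 1.65% of all windows and in a window of Hk2, Pfkfb3, Slc16a3 and Vegfa. All 10 genes that rose in XKO held a core in a window, as did 18 of the 20 that were tested and not called, so the letters did not separate the genes that rose from the others. For Vegfa the window at the outermost start held no core, and 2 cores were before a start inside the gene. The sequences below show 4 genes that rose (Slc2a1, Hk2, Slc16a3 and Ero1l) and, for contrast, the outermost Ldha promoter, which held 5 matches while Ldha was not called. They run 5′ to 3′ and end at the base before the start, and capitals mark a core on either strand (CACGT and CACGC are the cores read on the other strand, and CACGTG counts as a match on each).
Slc2a1, chr4:119108495-119108744, plus strand: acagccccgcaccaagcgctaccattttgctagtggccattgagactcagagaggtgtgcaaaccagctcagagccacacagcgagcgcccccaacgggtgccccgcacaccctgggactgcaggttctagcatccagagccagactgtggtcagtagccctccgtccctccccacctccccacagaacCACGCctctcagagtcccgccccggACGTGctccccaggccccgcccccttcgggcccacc
Hk2, chr6:82774455-82774704, minus strand: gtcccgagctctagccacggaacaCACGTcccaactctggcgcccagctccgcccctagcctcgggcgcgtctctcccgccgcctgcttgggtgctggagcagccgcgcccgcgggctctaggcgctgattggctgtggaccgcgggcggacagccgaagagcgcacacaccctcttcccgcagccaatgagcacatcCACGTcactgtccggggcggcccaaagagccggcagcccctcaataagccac
Slc16a3, chr11:120948817-120949066, plus strand: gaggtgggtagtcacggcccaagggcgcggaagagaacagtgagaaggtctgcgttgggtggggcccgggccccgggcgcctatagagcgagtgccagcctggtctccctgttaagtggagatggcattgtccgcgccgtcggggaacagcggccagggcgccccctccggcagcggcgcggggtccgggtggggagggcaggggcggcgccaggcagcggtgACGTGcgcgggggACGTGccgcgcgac
Ero1l, chr14:45318573-45318822, minus strand: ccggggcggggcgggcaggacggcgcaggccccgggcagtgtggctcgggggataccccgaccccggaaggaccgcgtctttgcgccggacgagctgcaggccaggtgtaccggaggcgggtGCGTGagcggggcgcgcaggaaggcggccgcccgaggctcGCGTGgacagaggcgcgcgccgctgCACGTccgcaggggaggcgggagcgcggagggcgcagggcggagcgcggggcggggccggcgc
Ldha, chr7:46845554-46845803, plus strand: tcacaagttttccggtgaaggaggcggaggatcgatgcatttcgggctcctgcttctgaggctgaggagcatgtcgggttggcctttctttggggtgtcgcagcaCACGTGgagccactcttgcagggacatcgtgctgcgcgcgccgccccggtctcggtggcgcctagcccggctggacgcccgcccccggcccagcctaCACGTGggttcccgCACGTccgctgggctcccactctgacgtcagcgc
The Slc2a1 matches begin 61 and 36 bases before the start, those of Slc16a3 27 and 14 bases, those of Hk2 226 and 52 bases and those of Ero1l 128, 88 and 63 bases. A match is a description of the letters and not a measured binding site.

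In XKO the transcripts of the glucose transporter, of single enzymes of glycolysis and of both lactate transporters were modestly higher, while most glycolytic enzymes were not called. Of the 23 rows of glycolysis genes, all tested, 6 rose (Slc2a1, Hk2, Pfkp, Gapdh, Slc16a1 and Slc16a3), 0 fell and 17 were not called, a call being an adjusted p under 0.05 in edgeR's quasi-likelihood test with Benjamini-Hochberg adjustment over 14333 tested genes. Of all tested genes 6.0% rose and 7.99% fell (14.0% called in all), against 26.1% of these rows called. The median log2 fold change was 0.12 for the glycolysis rows and 0.0014 for all tested genes. In 15 of the 23 rows the 3 XKO values did not overlap the 3 XWT values, 12 of them higher and 3 lower, whereas 36.2% of all tested genes had groups that did not overlap (17.5% higher and 18.6% lower in XKO). Of the 10 oxygen-sensing genes, 9 passed the filter on low counts. Of these, 4 rose (Hif1a, Egln3, Ero1l and Vegfa), 1 fell (Ndrg1) and 4 were not called (55.6% called). Their median was -0.14, but 0.15 with a stricter filter that kept 8 of them. The 6 glycolysis rises became 2 without XKO 1, XKO 2, XKO 3 or XWT 1 and 4 without XWT 2, and the 4 oxygen-sensing rises became 2 without XKO 2 or XKO 3. With trends of gene length and GC content removed from each library 12 glycolysis genes rose, and with library size alone as scaling 10 did, so the number of enzymes called depends on the scaling.

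**Figure D1:**
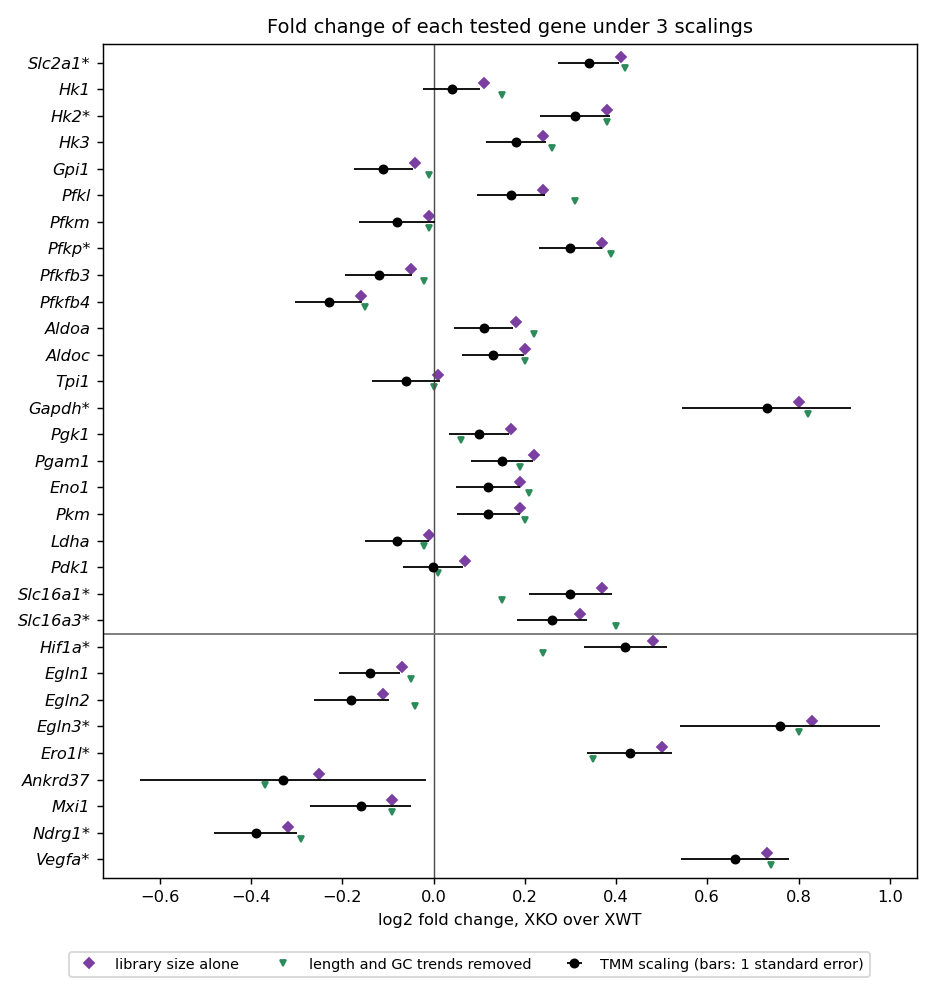
Log2 fold change of XKO over XWT for each tested gene (the first Aldoa row only) under 3 scalings; black points are the TMM-scaled values with 1 standard error, and an asterisk marks genes called at an adjusted p under 0.05. Above the line are the glycolysis genes and below it the oxygen-sensing genes; Pkm moves from 0.12 to 0.19 with library size alone and to 0.20 with length and GC trends removed, while Slc16a1 moves from 0.30 to 0.15 with the trends removed.

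Slc2a1 (ENSMUSG00000028645, chromosome 4 from 119108711 to 119137983, plus strand), the gene of the glucose transporter GLUT1, stood at 53.2, 52.6 and 57.9 CPM in XWT 1 to 3 and at 69.9, 69.9 and 67.7 CPM in XKO 1 to 3. Every XKO value was above every XWT value. Slc2a1 rose by 0.34 ± 0.0673 (log2, SE; edgeR adjusted p = 0.00452). Slc2a1 stayed called in all 6 fits that left out a library and in all 10 other settings, with log2 fold changes of 0.31 to 0.42. Other transporter genes of this family were not called. Mean levels were 72.6 and 79.9 CPM for Slc2a6 (0.14 ± 0.0621) and 15.2 and 17.5 CPM for Slc2a3 (0.21 ± 0.0911). Slc2a8 was lower in XKO, at 22.2 and 18.2 CPM (-0.29 ± 0.103, adjusted p = 0.0798).

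Hexokinases phosphorylate glucose and so keep it in the cell. The inducible isoform gene Hk2 stood at 54.3, 57.0 and 65.2 CPM in XWT and at 72.0, 71.1 and 76.5 CPM in XKO. The groups did not overlap, and XWT 3 lay nearest to XKO. Hk2 rose by 0.31 ± 0.0773 (log2, SE; edgeR adjusted p = 0.0172), but its call was lost without XKO 1, XKO 2, XKO 3, XWT 1 or XWT 2 (0.26 to 0.33, largest adjusted p 0.104). Hk3, the isoform known from myeloid cells, was at 275, 312 and 289 CPM in XWT and at 328, 329 and 331 CPM in XKO, without overlap. Its log2 fold change of 0.18 ± 0.0661 did not pass (adjusted p = 0.0924), but did with library size alone (0.24, adjusted p = 0.0268), with length and GC trends removed (0.26, 0.00361), with quality weights in limma-voom (0.17, 0.0454) and without XWT 2 (0.22, 0.0306). Hk1, the widely expressed isoform, had overlapping groups at 132 to 143 and 139 to 142 CPM (0.04 ± 0.0625). In counts per kilobase within a library, Hk3 made up 75.4% ± 0.78 (SD, n = 3) of the 3 hexokinase transcripts in XWT and 75.7% ± 0.222 in XKO. Hk2 made up 9.40% ± 0.924 and 10.4% ± 0.33, so Hk3 was the main hexokinase transcript in all 6 libraries.

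**Figure D2:**
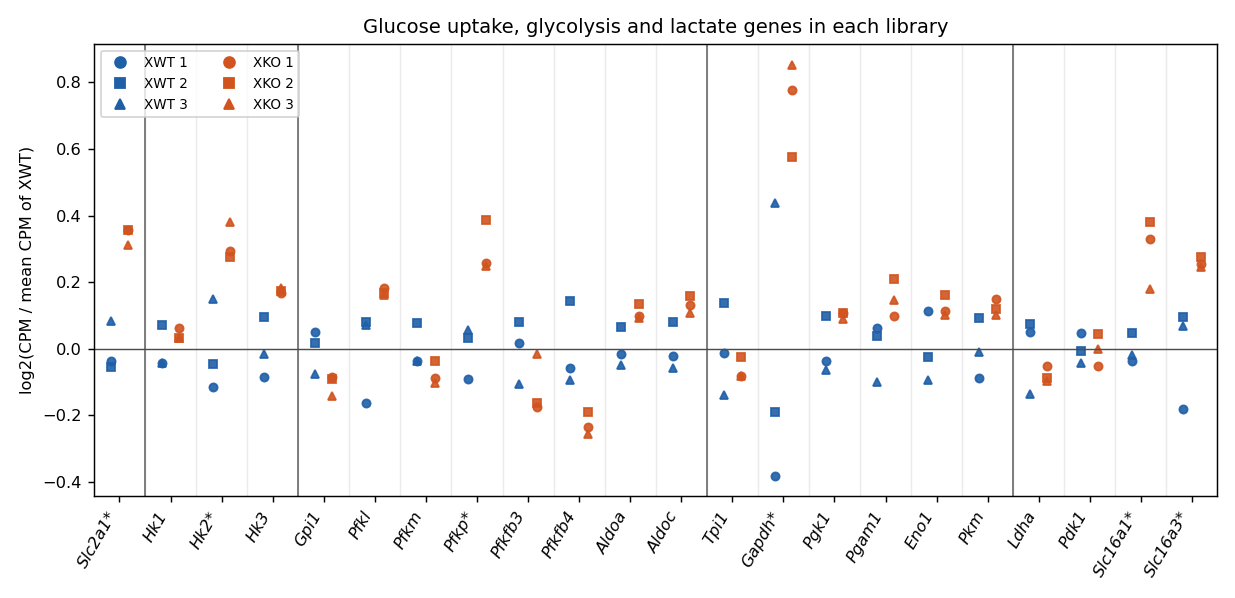
Log2 ratio of each library's CPM to the mean CPM of the 3 XWT libraries for 22 glucose uptake, glycolysis and lactate genes, in the order of the pathway; blue is XWT, orange is XKO, shapes are the replicate numbers and an asterisk marks a called gene. The XKO points of Slc2a1, Hk2, Pfkp, Gapdh, Slc16a1 and Slc16a3 lie above all XWT points, and those of Ldha and Pdk1 overlap with XWT.

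Among the genes of the upper part of glycolysis after the hexokinases only Pfkp was called. Phosphofructokinase has a liver-type (Pfkl), a muscle-type (Pfkm) and a platelet-type (Pfkp) subunit, all of which the macrophages expressed. Pfkp stood at 72.6, 79.1 and 80.3 CPM in XWT and at 92.4, 101 and 91.9 CPM in XKO, without overlap, and rose by 0.30 ± 0.0692 (log2, SE; edgeR adjusted p = 0.0127). The call was lost without XKO 2 (0.25, adjusted p = 0.111). Pfkp shares 748 exonic bases, 5.58% of its own, with Pitrm1 on the other strand, and Pitrm1 was at 55.4 CPM in XWT and 53.8 CPM in XKO. Pfkl was at 73.3, 86.8 and 86.3 CPM in XWT and at 93.1, 92.1 and 91.9 CPM in XKO and was not called (0.17 ± 0.0737, adjusted p = 0.138), but was with length and GC trends removed (0.31, adjusted p = 0.00371). Pfkm was at 19.9 to 21.5 and 19.0 to 19.9 CPM (-0.08 ± 0.083). In counts per kilobase Pfkp made up 24.2%, 23.3% and 24.1% of the 3 subunit transcripts in XWT and 25.9%, 27.6% and 26.1% in XKO. Pfkm made up 26.7%, 25.4% and 24.0% in XWT and 21.7%, 21.8% and 21.6% in XKO. The shares of a library are parts of the same whole, so no share can move alone, and Pfkm itself was not called (edgeR adjusted p = 0.567). They rest on the gene lengths of the authors' table, 13401 bases for Pfkp and 3340 for Pfkm.

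Pfkfb3 and Pfkfb4 encode bifunctional enzymes that make or break down the sugar bisphosphate known as the main activator of phosphofructokinase. Neither was called, and their mean levels were lower in XKO. Pfkfb4 stood at 84.0, 96.7 and 82.0 CPM in XWT and at 74.4, 76.7 and 73.2 CPM in XKO, without overlap. Its log2 fold change of -0.23 ± 0.0735 did not pass (edgeR adjusted p = 0.0545). It passed with DESeq2 (adjusted p = 0.0469), without a filter (0.0269), with upper-quartile scaling (0.044), with quality weights (0.0272) and without XWT 3 (-0.27, 0.0136), and the authors' deposited table gives an adjusted p of 0.0468. Pfkfb3, the isoform with high kinase activity, had overlapping groups at 71.8 to 81.7 and 68.4 to 76.4 CPM (-0.12 ± 0.0733). Pfkfb2, of the same family, went the other way but was not called (0.38 ± 0.143, adjusted p = 0.0918). It had overlapping groups at 8.35 to 12.5 and 12.1 to 13.4 CPM. Pfkfb1 was at 1.65 to 2.49 and 1.40 to 2.26 CPM (-0.15 ± 0.26, not called). Gpi1, which turns glucose 6-phosphate into fructose 6-phosphate, was at 451 to 492 and 430 to 448 CPM (-0.11 ± 0.064, adjusted p = 0.285). Of the aldolases, which split the sugar before the triose steps, Aldoa was at 1389 to 1503 CPM in XWT and 1534 to 1577 CPM in XKO (0.11 ± 0.0641, adjusted p = 0.273) and Aldoc at 47.1 to 51.8 and 52.8 to 54.7 CPM (0.13 ± 0.0682). The second row named Aldoa (ENSMUSG00000114515) held 91 counts in all libraries together and had overlapping groups (0.02 ± 0.392).

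Of the 6 enzymes of the lower part, Gapdh was called and the other 5, whose log2 fold changes lay between -0.06 and 0.15, were not. In the authors' FPKM, which count per length, Pkm (pyruvate kinase of muscle and macrophage type) had a mean of 509 in XWT and 552 in XKO, Pgk1 190 and 204, and Eno1 157 and 171. Of the other glycolysis genes Aldoa, from the upper part, had 493 and 529. Pkm and Aldoa also had the highest CPM of the glycolysis genes, whose summed level was 7914, 8408 and 7761 CPM in XWT and 8556, 8605 and 8427 CPM in XKO. Pkm stood at 2398, 2720 and 2531 CPM in XWT and at 2827, 2771 and 2734 CPM in XKO, which did not overlap but lay close. Its log2 fold change was 0.12 ± 0.0685 (edgeR adjusted p = 0.242), and 15.3% of its exonic bases are shared with AC160637.1, a model on the same strand that rose (0.90, adjusted p = 0.0358). Phosphoglycerate mutase, Pgam1, was at 252 to 282 and 289 to 312 CPM (0.15 ± 0.0673, adjusted p = 0.151). Enolase, Eno1, was at 794 to 916 and 909 to 947 CPM (0.12 ± 0.0697), phosphoglycerate kinase, Pgk1, at 409 to 458 and 455 to 461 CPM (0.10 ± 0.0658), and triosephosphate isomerase, Tpi1, at 327 to 396 and 340 to 354 CPM (-0.06 ± 0.0746). The last 3 had overlapping groups. With length and GC trends removed, Pkm (0.20), Aldoa (0.22), Aldoc (0.20), Pgam1 (0.19) and Eno1 (0.21) were called, with adjusted p of 0.0183, 0.00939, 0.0222, 0.0447 and 0.0394. With library size alone, Aldoa, Pgam1 and Eno1 were called and Pkm was not (adjusted p = 0.0586).

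Gapdh (ENSMUSG00000057666, chromosome 6 from 125161715 to 125166467, minus strand), the enzyme gene between Tpi1 and Pgk1 in the pathway and a common reference gene, was counted at a level far below its neighbours. Its raw counts were 105, 132 and 215 in XWT and 270, 233 and 281 in XKO, and its FPKM in the authors' table had a mean of 1.22 in XWT and 2.04 in XKO, against 131 and 125 for Tpi1. In GENCODE M21 (GRCm38) 78 other genes, 75 of them pseudogenes, align to the Gapdh transcript over at least 200 bases at 95% identity or more, while no other glycolysis gene had more than 4 such copies. The counts summed over these 78 genes were 618, 927 and 681 in XWT and 758, 745 and 717 in XKO, above the counts of Gapdh in each library. The fitted rise of Gapdh (log2 fold change 0.73 ± 0.185, edgeR adjusted p = 0.0198) therefore rests on 1236 counts in 6 libraries of a gene whose reads can be shared with copies, and the value is uncertain. The call was lost without XKO 1, XKO 3, XWT 1 or XWT 2 (0.58 to 0.72, largest adjusted p 0.0945), and without XWT 3 the value was 1.02. The sources used here do not say how reads with several matches were treated.

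**Figure D3:**
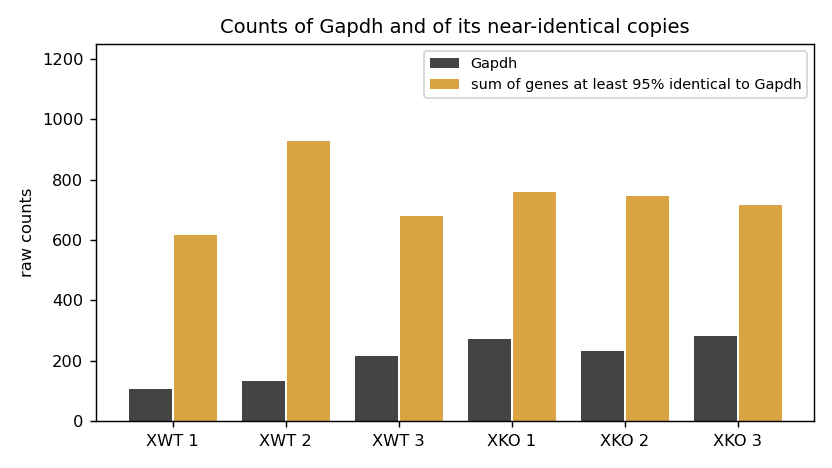
Raw counts of Gapdh (grey) and the sum over the 78 genes at least 95% identical to it (yellow) in each library, on an axis that starts at 0. Gapdh holds 105 to 281 counts and its copies 618 to 927, so the copies exceed Gapdh in all 6 libraries.

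At the end of the pathway the 2 lactate transporter genes rose, while the enzymes at the pyruvate branch point did not pass. Slc16a3, the gene of the lactate exporter MCT4, stood at 61.5, 74.5 and 73.1 CPM in XWT and at 83.1, 84.3 and 82.6 CPM in XKO. The XKO values lay within a narrow range above all XWT values, of which XWT 1 was lowest. Slc16a3 rose by 0.26 ± 0.0769 (log2, SE; edgeR adjusted p = 0.0408). Its call was lost without XKO 1, XKO 2, XKO 3 or XWT 1 (0.17 to 0.26, largest adjusted p 0.161) and with upper-quartile scaling (0.24, adjusted p = 0.0566), and the value was 0.40 with length and GC trends removed. Slc16a1, the gene of the transporter MCT1, stood at 14.8, 15.7 and 15.0 CPM in XWT and at 19.1, 19.8 and 17.2 CPM in XKO, without overlap, and rose by 0.30 ± 0.0916 (edgeR adjusted p = 0.0427). This call was lost in 5 of the 6 fits without 1 library, all but the one without XWT 3 (largest adjusted p 0.208). It was also lost in 5 of 10 other settings, among them DESeq2 (0.30, adjusted p = 0.0669), the replicate block (0.30, 0.0558) and removal of length and GC trends (0.15, 0.288). In counts per kilobase Slc16a3 made up 79.2% ± 1.44 (SD, n = 3) of the 2 transporter transcripts in XWT and 78.8% ± 1.05 in XKO. Ldha, which turns pyruvate into lactate, was at 600, 610 and 527 CPM in XWT and at 559, 545 and 541 CPM in XKO, with overlapping groups (-0.08 ± 0.0704, adjusted p = 0.482). Without XWT 3, whose value was the lowest of the 6, Ldha was called lower (-0.14, adjusted p = 0.0489). Pdk1, a kinase that keeps pyruvate from entering the mitochondrial oxidation route, was at 54.3 to 57.7 and 53.9 to 57.6 CPM, with an adjusted p of 0.993.

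Of the HIF system, the gene of the oxygen-regulated subunit and the least expressed of the hydroxylase genes rose. Hif1a (ENSMUSG00000021109, chromosome 12 from 73901375 to 73947530, plus strand) stood at 119, 89.1 and 112 CPM in XWT and at 138, 143 and 146 CPM in XKO. The groups did not overlap, and XWT 2 was the lowest value. Hif1a rose by 0.42 ± 0.0907 (log2, SE; edgeR adjusted p = 0.00885). The call was lost without XKO 3 (0.40, adjusted p = 0.0568), and the value fell to 0.24 with length and GC trends removed, where it was still called (adjusted p = 0.0127). These are RNA levels, and HIF is known to be controlled largely through the stability of the protein, which was not measured.

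Egln3 (chromosome 12 from 54178981 to 54203860, minus strand), a hydroxylase gene that is itself induced by HIF, stood at 2.63, 2.39 and 1.66 CPM in XWT and at 3.16, 4.65 and 3.49 CPM in XKO. It rose by 0.76 ± 0.219 (log2, SE; edgeR adjusted p = 0.0355) on 542 counts in all. The call was lost without any 1 of XKO 1, XKO 2, XKO 3, XWT 2 and XWT 3 (0.58 to 0.87, largest adjusted p 0.195) and with quality weights (0.77, adjusted p = 0.0761). Egln1, the main oxygen sensor of most cells, was at 61.7, 62.4 and 57.2 CPM in XWT and at 54.3, 54.4 and 55.6 CPM in XKO, without overlap (-0.14 ± 0.0666, adjusted p = 0.17), and was called without XWT 3 (-0.18, adjusted p = 0.0434). Egln2 was at 65.8 ± 7.18 CPM (SD, n = 3) in XWT and at 58.0 ± 2.74 CPM in XKO, with overlap (-0.18 ± 0.082). In counts per kilobase Egln3 made up 2.50%, 2.01% and 1.59% of the 3 hydroxylase transcripts in XWT and 3.11%, 4.72% and 3.55% in XKO, so Egln1 and Egln2 held nearly all of this pool in both groups.

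Of the 5 known HIF targets that were tested, 2 rose, 1 fell and 2 were not called. Thus 3 of 5 were called, against 14.0% of all tested genes, and a share of only 5 genes is imprecise. Vegfa (ENSMUSG00000023951, chromosome 17 from 46016993 to 46032369, minus strand), the vascular growth factor gene, stood at 10.5, 9.03 and 12.3 CPM in XWT and at 16.1, 18.1 and 16.1 CPM in XKO. The groups were well apart, and Vegfa rose by 0.66 ± 0.118 (log2, SE; edgeR adjusted p = 0.00243). It stayed called in all 6 fits without a library and in all 10 other settings (0.55 to 0.78). Ero1l (chromosome 14 from 45283087 to 45318771, minus strand), now named Ero1a, encodes the ER oxidase that drives disulfide formation and is known as a target both of HIF and of ER stress. It stood at 45.2, 34.3 and 41.6 CPM in XWT and at 52.9, 57.2 and 52.7 CPM in XKO, without overlap, and rose by 0.43 ± 0.0931 (edgeR adjusted p = 0.00863). The call was lost without XKO 2 (0.39, adjusted p = 0.0626).

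Ndrg1, a stress-response gene that hypoxia is known to induce, fell. It stood at 45.6, 45.7 and 37.1 CPM in XWT and at 35.2, 31.8 and 31.1 CPM in XKO, without overlap, with XWT 3 nearest to XKO. The log2 fold change was -0.39 ± 0.0917 (edgeR adjusted p = 0.0144). The call was lost without XKO 2, XKO 3, XWT 1 or XWT 2 (-0.37 to -0.34, largest adjusted p 0.0877). Mxi1, a MAX partner that opposes MYC, was at 37.6, 28.8 and 29.6 CPM in XWT and at 26.8, 26.7 and 32.4 CPM in XKO, with overlap (-0.16 ± 0.111). Ankrd37, a small HIF target, was at 0.832 to 1.52 and 0.846 to 0.934 CPM (-0.33 ± 0.313). Adm, the gene of adrenomedullin, held 27 counts in the 6 libraries together and did not pass the filter, so it was not tested in the fit reported here. The authors' deposited table gives it a log2 fold change of -0.42 with an adjusted p of 0.856.

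**Figure D4:**
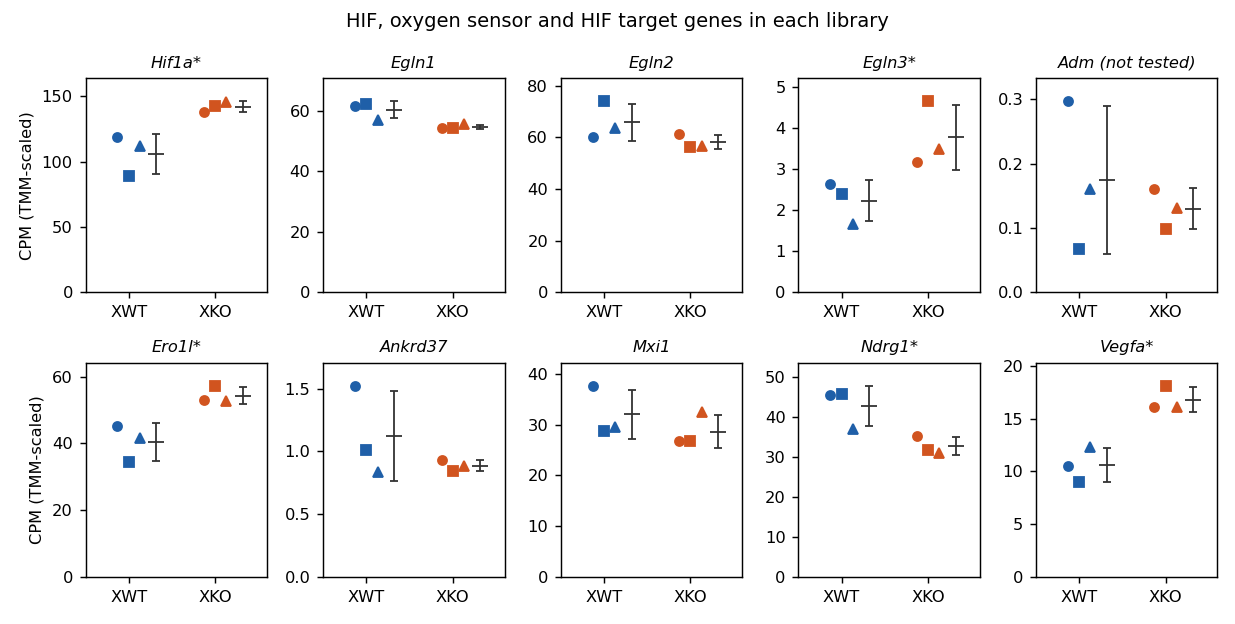
CPM of the 10 oxygen-sensing genes in each library, on axes that start at 0; circles, squares and triangles are replicates 1, 2 and 3, the bar beside each group is the mean with 1 SD (n = 3), and an asterisk marks a called gene. Hif1a, Egln3, Ero1l and Vegfa lie higher in all XKO libraries and Ndrg1 lies lower, while Egln2, Adm, Ankrd37 and Mxi1 overlap.

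Calls among other hypoxia genes went in both directions. Of 32 further genes known from the hypoxia response, 29 were tested, 2 rose, 7 fell and 20 were not called, with a median of -0.06. Bhlhe40, a transcriptional repressor induced by hypoxia and by inflammation, rose from 16.4, 13.4 and 11.9 CPM to 25.0, 26.6 and 24.3 CPM (0.86 ± 0.111, SE; edgeR adjusted p = 0.000163). P4ha2, a collagen prolyl hydroxylase subunit, fell by 0.71 on the log2 scale (edgeR adjusted p = 0.00304), and Vldlr, a lipoprotein receptor gene, by 1.19 (0.00322). P4ha2 is known to be made also by fibroblasts. All 12 tested stroma markers fell between the same groups, against 7.99% of all tested genes. Their median was -3.20 (Sparc -3.46, Col1a2 -3.36, Bgn -3.73, Col3a1 -3.87). The part of the stroma in these falls was not tested.

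Of 20 further glycolysis genes 15 were tested, 1 rose and 0 fell (6.67% called, against 14.0% of all tested genes), with a median of 0.06. The gene that rose was the enolase isoform gene Eno2, at 9.97 to 13.4 CPM in XWT and 16.0 to 18.7 CPM in XKO (0.64 ± 0.123, SE; edgeR adjusted p = 0.00371). Of 16 tested genes of pyruvate dehydrogenase and pyruvate import 0 rose and 2 fell (12.5% called, near the 14.0% of all tested genes). Both encode kinases that switch pyruvate dehydrogenase off. Pdk4 was at 1.86, 1.41 and 2.66 CPM in XWT and at 0.387, 0.163 and 0.425 CPM in XKO (-2.59 ± 0.383, adjusted p = 0.000535). Pdk2 was at 18.3, 18.1 and 16.8 CPM in XWT and at 12.2, 11.5 and 11.6 CPM in XKO (-0.59 ± 0.0922, adjusted p = 0.000825). Of 16 tested genes of the pentose phosphate route and glycogen, 1 rose and 1 fell (again 12.5% called), and both act on glycogen. The branching enzyme gene Gbe1 rose from 41.8, 34.0 and 37.5 CPM to 51.0, 50.3 and 50.3 CPM (0.42 ± 0.0805, adjusted p = 0.00371). The glycogen phosphorylase gene Pygb fell from 124, 132 and 114 CPM to 92.5, 91.9 and 94.0 CPM (-0.41 ± 0.0688, adjusted p = 0.00159).

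Of 11 tested genes of glucose sensing and the MYC network 2 rose, 2 fell and 7 were not called. This was 36.4% called, against 14.0% of all tested genes. Txnip, a brake on glucose uptake whose transcription follows glucose supply, fell from 576, 586 and 509 CPM to 351, 337 and 372 CPM (-0.66 ± 0.0729, SE; edgeR adjusted p = 4.22e-05). Slc2a1, the gene of the transporter on which TXNIP is known to act, rose in the same libraries. Mxd4, a MAX partner that represses MYC targets, fell by 0.50 on the log2 scale (adjusted p = 0.000413). Myc rose by 0.27 (adjusted p = 0.0433) and Mga, another MAX partner, by 0.31 (0.0335). The call of Myc was lost in 5 of the 6 fits without a library (all but XWT 1, largest adjusted p 0.186). It was also lost in 5 of 10 other settings, among them DESeq2. The call of Mga was lost in 5 of the 6 fits without a library (all but XWT 3, largest adjusted p 0.123). Between the same groups 7 of 9 tested neutrophil markers rose (77.8% called, against 14.0% of all tested genes). Their median was 0.90 (Mmp8 0.78, Lcn2 0.95, Ltf 1.54, S100a8 0.90). The other 2, Mmp9 (means 40.7 and 38.2 CPM, -0.09) and Mpo (0.30), were not called, and Ly6g had 0 counts. The part of neutrophils in the rises of the glycolysis genes was not tested.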

How the data were processed

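RNA sequencing of 6 samples was deposited by the authors as 1 table. Per the file headers its count columns hold whole-number counts per Ensembl gene, and its FPKM columns, log2 fold change, p-value and adjusted p-value were also deposited by the authors, with scaled group means as a signal. FPKM were used only to compare levels between genes, and the scaled means not at all. Bowtie 0.12.2 and the builds mm8 and mm10 appear in the submitters' processing notes without a stated role. The sources used here do not give the counter, the strand setting or the treatment of reads with several matches, so overlapping genes cannot be told apart. Of the 33 member rows, 31 have the coordinates of GENCODE M21 (GRCm38), and the table's own coordinates are printed.

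Counts were tested with edgeR 4.0.16 in R 4.3.3 (filterByExpr, TMM, robust quasi-likelihood fit, 4 residual degrees of freedom; 14333 of 54532 genes kept), XKO against XWT, with Benjamini-Hochberg adjustment over all tested genes and a threshold of 0.05. Standard errors were derived from the fold change and its F statistic. CPM are scaled by TMM. At 28354866 to 30891729 counts per library the biological coefficient of variation was 0.0865. Alternatives were other scalings, no filter, a stricter filter (1 CPM in 3 libraries), DESeq2 1.42.0, limma-voom 3.58.1 with and without quality weights, a replicate block, removal of length and GC trends (mgcv 1.9.3), and leaving out each library. Near-identical copies were found with blastn 2.17.0. The scripts were tested on simulated counts. No 2 libraries of a group agreed within sampling noise. The chi-square per gene between 2 libraries was 21.1 to 23.8 in XWT and 2.92 to 4.85 in XKO. The fit used a dispersion shared by both groups.

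All 32 members are named. From each other list the called genes with the smallest p are named, up to 4 (2 where none is called), except for 1 gene that is not reported here. The members and lists were chosen with earlier results of these data known. Pairs of values separated by "and" or "to" give XWT first.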

Additional observations from a re-analysis of the deposited data

How the results depend on the processing

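Of 318 values of the members under the 10 settings that keep all libraries, 288 kept their direction and their side of the threshold, 7 lost and 16 gained a call, and 7 changed sign. Of 192 values with 1 library left out, 152 kept both, 30 lost and 4 gained a call, and 6 changed sign. Only Slc2a1 and Vegfa, of 11 called members, kept their call in every fit. The cause of the lost calls was not tested. Over all genes, leaving out XWT 3 gave 2073 higher and 2164 lower, against 860 and 1145 with all libraries. Leaving out XKO 2 gave 274 and 532. The signs that changed were those of values near 0 that were never called: Tpi1 (0.01 with library size alone, 0.00056 with length and GC trends removed), Pdk1 (0.07 with library size alone, 0.01 with the trends removed and with the stricter filter) and the second Aldoa row (-0.03 with limma-voom, -0.01 with the replicate block). With a library left out Pdk1 ranged from -0.03 to 0.02, Tpi1 from -0.13 to 0.01 and the second Aldoa row from -0.20 to 0.25.

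Glycolysis genes called higher (6) were 12 with length and GC trends removed, 10 with library size alone and 4 with upper-quartile factors, and 2 to 6 with a library left out. Those called lower (0) were 1 with DESeq2, upper-quartile factors, quality weights or no filter, and 0 to 2 with a library left out. Oxygen-sensing genes called higher (4) were 2 to 4 with a library left out, and those called lower (1) were 0 to 2. Over all genes 860 were higher and 1145 lower. This became 1324 and 1312 with the trends removed, 1158 and 749 with library size alone, and 1289 and 1545 without a filter, and 274 to 2073 and 532 to 2164 with a library left out. Library size alone moved the median of all genes by 0.07 on the log2 scale, and the share of calls that were higher was 60.7% there against 42.9%.

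Same-numbered libraries of the 2 groups did not deviate together (correlations across genes -0.0425, -0.0359 and -0.0543), so the numbers were not taken as pairs. With the replicate block 5 glycolysis genes were higher and 0 lower, 4 oxygen-sensing genes were higher and 1 lower, and 1068 of all genes were higher and 1127 lower.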
